A study of Mus musculus with 6 samples.

Results

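Complement genes were compared between LPS-stimulated RAW 264.7 cells with and without 15(S)-hydroxyeicosatetraenoic acid (15-HETE). The set was chosen by name and holds C1qa, C1qb, C1qc, C3, Cfb, Cfp, Cd55, Cr1l, Clu and Serping1. Of these 10 genes, 8 had a probe with 1 gene symbol, out of 13840 genes with such a probe, and each of the 8 had 1 probe, so no choice between probes was needed. No probe is annotated to C3 or Cfp, which were not analysed here. RAW 264.7 is a single macrophage-like cell line from mouse, LPS (endotoxin of bacterial walls) activates such cells, and 15-HETE is an oxidised lipid formed from arachidonic acid. The treated group (15-HETE + LPS, 3 samples) received 40 μM 15-HETE followed at once by 1 μg/mL LPS, the other group (LPS, 3 samples) received 1 μg/mL LPS, and RNA was taken at 24 h. Both groups thus carried LPS, no unstimulated cells were included, and no vehicle is named for the LPS cells. Each sample was a biological replicate made of 6 pooled wells.

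Complement is a cascade of plasma and cell surface proteins that tags microbes and dying cells for uptake and can form pores in membranes. It is started by C1q bound to antibody or to cell debris (classical pathway), by lectins, or by slow spontaneous turnover of C3 (alternative pathway), and all routes meet at the enzymes that cleave C3. Membrane and soluble regulators take these enzymes apart on host cells. Most plasma complement comes from the liver, but macrophages are the main source of C1q and also make factor B and other components when activated.

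Values are quantile-normalized linear intensities of single probes, in arbitrary units, and levels of different genes cannot be set against each other on this scale. Every sample had a median of 837 over 33012 probes. Pearson's r of log2 values, taken across probes (which are not independent replicates), was 0.955 to 0.962 between 15-HETE + LPS samples, 0.972 to 0.979 between LPS samples and 0.943 to 0.962 between the groups. Of 8 macrophage markers 6 were measured, all above the array median and none past the test. Their summed intensity was 3651563 to 3789272 in 15-HETE + LPS cells and 2529359 to 3283130 in LPS cells. Most of each sum was Lyz2, at 2536178 to 2647746 in 15-HETE + LPS cells and 1698875 to 2329593 in LPS cells. The sums thus say little of the other macrophage markers. Each of the 6 leaned higher, with log2 fold changes of 0.23 (Adgre1), 0.02 (Itgam), 0.30 (Lyz2), 0.21 (Cd14), 0.51 (Fcgr1) and 0.32 (Spi1). Every treated sample lay above every LPS sample for Adgre1, Lyz2, Fcgr1 and Spi1, and the groups overlapped for Itgam and Cd14. Such separation was seen for 20.3% of all probes above the median intensity. Of the measured markers of other cell types, 3 of 4 for hepatocytes, 4 of 5 for lymphocytes and 2 of 6 for fibroblasts lay below the array median, and none passed the test. The fibroblast list summed to 14664 to 16269 in 15-HETE + LPS cells and 23320 to 29338 in LPS cells. Most of that gap was Dcn, at 5348 to 6192 in 15-HETE + LPS cells and 11876 to 18190 in LPS cells. Its test is given at the end. Col3a1 leaned higher (log2 fold change 0.48), and the remaining fibroblast markers leaned lower. The hepatocyte list summed to 1455 to 2584 in 15-HETE + LPS cells and 2264 to 2549 in LPS cells. The lymphocyte list summed to 2374 to 5857 in 15-HETE + LPS cells and 3271 to 3846 in LPS cells. The part of these levels in the complement results was not tested. Hybridization sets are not given in the sources used here, so array set and treatment cannot be told apart.

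Among the 8 complement genes, clusterin rose after 15-HETE, and the others did not pass the test across the whole array. At an adjusted p under 0.05 (limma, Benjamini-Hochberg over the whole array) 1 of the 8 genes was higher and 0 were lower, where 0.509% of all probes were called higher and 0.442% lower. When the prior variance was allowed to follow intensity (the intensity trend), Cr1l passed as well, so 2 were higher and 0 lower, where 3.87% of all probes were higher and 4.96% lower. Before adjustment, 4 genes had a p under 0.05 with higher values (Clu, Cr1l, Cd55 and C1qb) and 0 with lower values, beside 8.62% and 11.0% of all probes. For these 4 genes every treated sample lay above every LPS sample, and for 0 genes every treated sample lay below, which was so for 13.7% and 16.3% of all probes. The first share was 20.3% among probes above the median intensity, to which 7 of the 8 genes belong (Cd55 with an LPS mean of 799, below the array median of 837), and 7.08% among the dimmer probes. Separation in either direction was seen for 45.6% of the brighter probes. The same 4 genes reached 1.8-fold of the LPS mean in at least 2 of 3 treated samples and 0 genes fell as far, beside 6.88% and 10.3% of all probes. The median log2 fold change of the 8 genes was 0.65, with 5 above 0 and 3 below, and that of all probes was 0.01, with 50.5% above 0. The study had itself selected Clu and Cr1l from these arrays, so these counts are not independent evidence of direction.

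**Figure D1:**
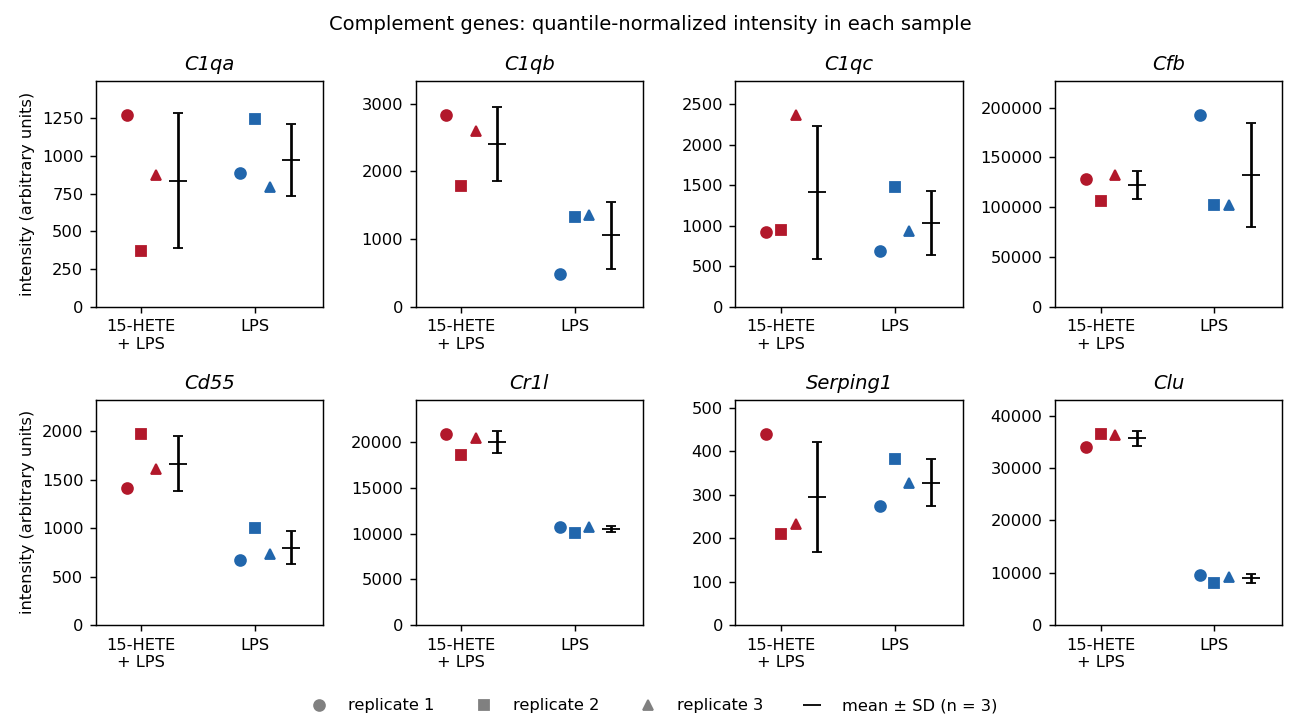
Intensity (arbitrary units, each axis from 0) of the 8 measured complement genes in each sample, with 15-HETE + LPS samples in red on the left and LPS samples in blue on the right of each panel, symbols for replicates and black bars for mean ± SD (n = 3). The groups do not overlap for C1qb, Cd55, Cr1l and Clu, and they overlap for C1qa, C1qc, Cfb and Serping1.

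Promoter sequence of 4 of the 8 measured genes was found in the RefSeq table of build GRCm38.p6, namely of Cr1l, Cd55, C1qb and C1qc. Each entry runs from 250 bases before to 50 after the start site. The first pair is shown because both genes encode regulators of the C3-cleaving enzymes and both were higher in every treated sample. The second pair is shown because these neighbouring genes encode partner chains of C1q. The groups did not overlap for C1qb and overlapped for C1qc, but a difference between their responses was not shown (exact permutation p = 0.2). Capitals mark CG dinucleotides.
Cr1l (chr1:195131521-195131820, minus strand): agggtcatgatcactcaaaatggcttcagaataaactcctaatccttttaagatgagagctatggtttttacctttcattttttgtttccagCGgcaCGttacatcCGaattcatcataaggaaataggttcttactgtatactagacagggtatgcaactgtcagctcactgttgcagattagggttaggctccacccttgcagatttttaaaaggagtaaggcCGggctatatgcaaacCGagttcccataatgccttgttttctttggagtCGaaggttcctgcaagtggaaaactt
Cd55 (chr1:130462695-130462994, minus strand): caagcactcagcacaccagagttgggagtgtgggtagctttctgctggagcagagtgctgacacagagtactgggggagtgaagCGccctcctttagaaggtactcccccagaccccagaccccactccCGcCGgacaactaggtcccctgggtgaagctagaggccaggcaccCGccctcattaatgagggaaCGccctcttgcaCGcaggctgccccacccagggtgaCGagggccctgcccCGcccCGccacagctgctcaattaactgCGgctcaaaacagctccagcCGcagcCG
C1qb (chr4:136886151-136886450, minus strand): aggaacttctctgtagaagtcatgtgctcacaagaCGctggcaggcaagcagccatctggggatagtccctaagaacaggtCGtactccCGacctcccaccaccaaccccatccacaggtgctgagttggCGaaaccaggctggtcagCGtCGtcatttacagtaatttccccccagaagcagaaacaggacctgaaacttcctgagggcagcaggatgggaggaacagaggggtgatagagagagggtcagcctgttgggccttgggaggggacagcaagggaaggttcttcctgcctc
C1qc (chr4:136892865-136893164, minus strand): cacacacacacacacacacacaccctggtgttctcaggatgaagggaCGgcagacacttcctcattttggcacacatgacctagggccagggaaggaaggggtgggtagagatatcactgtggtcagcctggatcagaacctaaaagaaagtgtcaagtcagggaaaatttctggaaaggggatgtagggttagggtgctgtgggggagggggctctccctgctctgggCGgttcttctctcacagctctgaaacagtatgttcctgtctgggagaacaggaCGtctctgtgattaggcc

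The promoters of the regulators Cr1l and Cd55 differed in base composition. That of Cd55 held 12 CG dinucleotides and 63.3% G and C, and 39.6% of the 32851 promoters in the table had at least as many CG dinucleotides. That of Cr1l held 6 CG dinucleotides and 41.3% G and C, a G and C share that 13.4% of the promoters reached or stayed under. The promoters of C1qb and C1qc held 6 and 3. The 4 windows were searched on both strands for 7 motifs of factors active in macrophages or in stress, and 0 matches were found, so no motif overlapped another. These were NF-kB (GGGNNTTTCC, in 1.63% of all promoters), GAS, the STAT site (TTCNNNGAA, 8.30%), ISRE (GAAANNGAAA, 3.44%), the heat shock element (GAANNTTCNNGAA, 0.603%), AP-1 (TGANTCA, 7.81%), C/EBP (TTGNGNAA, 13.3%) and the PPAR response element (AGGTCANAGGTCA, 0.0396%).

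Clu encodes clusterin, a secreted chaperone that binds misfolded proteins and, as a fluid phase regulator, keeps the terminal complement complex from inserting into membranes. Its intensity was 34048, 36493 and 36370 in the 15-HETE + LPS samples and 9624, 7982 and 9136 in the LPS samples. The lowest treated sample was thus well above the highest LPS sample, and the spread within each group was small beside the gap. Means were 35637 ± 1377 in 15-HETE + LPS cells and 8914 ± 843 in LPS cells (SD, n = 3 each), which is 3.82-, 4.09- and 4.08-fold the LPS mean in the 3 treated samples. The log2 fold change was 2.00 with a standard error of 0.17 (95% interval 1.58 to 2.42, adjusted p = 0.0321 from limma, and 8.8e-05 with the intensity trend). The exact permutation test gave a two-sided p of 0.1, the smallest that 3 samples against 3 allow. By p-value Clu ranked at place 20 of 33012 probes, and 114 probes had a log2 fold change at least as large. With any 1 of the 6 samples left out the log2 fold change of Clu lay between 1.93 and 2.06. Its adjusted p was then 0.0675 to 0.184 without the intensity trend, where limma called 0 probes of the array, and 2.21e-06 to 0.00324 with it.

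Cr1l encodes Crry, a membrane protein of rodents that protects host cells by dissociating C3-cleaving enzymes and by serving as cofactor in the cleavage of C3b and C4b. Its intensity was 20891, 18585 and 20454 in the 15-HETE + LPS samples and 10665, 10111 and 10711 in the LPS samples. The groups lay far apart, and the samples within each were close. Means were 19976 ± 1225 in 15-HETE + LPS cells and 10496 ± 334 in LPS cells (SD, n = 3 each). On the log2 scale the fold change was 0.93 with a standard error of 0.17 (95% interval 0.52 to 1.33), and its adjusted p was 0.0637 from limma and 0.00239 with the intensity trend, so the call depended on how limma sets the prior variance. Of the 3 treated samples 2 reached 1.8-fold of the LPS mean. The log2 fold change of Cr1l stayed between 0.89 and 0.98 with any 1 sample left out, with an adjusted p of 0.000146 to 0.0208 under the intensity trend.

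Cd55 encodes decay-accelerating factor, a lipid-anchored membrane protein that speeds the dissociation of the C3-cleaving enzymes. Its intensity was 1413, 1970 and 1606 in the 15-HETE + LPS samples and 666, 996 and 733 in the LPS samples. All treated samples were above all LPS samples, with LPS replicate 2 nearest to them. Means were 1663 ± 283 in 15-HETE + LPS cells and 799 ± 174 in LPS cells (SD, n = 3 each). This gave a log2 fold change of 1.07 with a standard error of 0.24 (95% interval 0.48 to 1.65), which did not pass the test over all probes (adjusted p = 0.0925 from limma, 0.0780 with the intensity trend). Cd55 has a close neighbour of like sequence, Cd55b, whose dim probe read 252, 438 and 550 in the 15-HETE + LPS samples and 296, 318 and 156 in the LPS samples, with overlapping groups. Whether either probe also reads the other transcript was not tested.

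Serping1 encodes C1 inhibitor, which blocks the proteases C1r and C1s of the classical pathway. Its probe lay below the array median in every sample. Its intensity was 440, 210 and 232 in the 15-HETE + LPS samples and 275, 382 and 326 in the LPS samples. The groups overlapped, and the treated samples held both the highest and the lowest value. The log2 fold change was -0.23 (95% interval -1.03 to 0.58, adjusted p = 0.744 from limma), so a change of up to about 1.49-fold higher or down to 0.491 of the LPS level lies within the interval.

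C1qa, C1qb and C1qc encode the A, B and C chains that assemble into C1q, the recognition molecule of the classical pathway, and they are neighbours on chromosome 4. C1qb read 2828, 1788 and 2595 in the 15-HETE + LPS samples and 480, 1332 and 1348 in the LPS samples. The groups did not overlap, but LPS replicate 1 stood well below the other LPS samples. C1qb had a log2 fold change of 1.31 with a standard error of 0.46 (95% interval 0.20 to 2.42, adjusted p = 0.193 from limma, 0.0972 with the intensity trend), and without LPS replicate 1 it was 0.82. C1qa read 1270, 369 and 872 in the 15-HETE + LPS samples and 886, 1247 and 794 in the LPS samples. C1qc read 924, 949 and 2363 in the 15-HETE + LPS samples and 692, 1472 and 936 in the LPS samples. For both genes the groups overlapped. The treated samples of C1qa were widely spread, with replicate 2 lowest, and for C1qc treated replicate 3 was far above the others. Log2 fold changes were -0.37 for C1qa (95% interval -1.53 to 0.79, adjusted p = 0.711) and 0.37 for C1qc (standard error 0.47, adjusted p = 0.699). C1qa turned to 0.14 without 15-HETE + LPS replicate 2, and C1qc to -0.07 without 15-HETE + LPS replicate 3.

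These chains were read at intensities near the array median, and their coefficients of variation were 22.7% to 58.3% in 15-HETE + LPS cells and 24.5% to 47.2% in LPS cells. For Clu and Cr1l they were 3.87% and 6.13% in 15-HETE + LPS cells and 9.46% and 3.18% in LPS cells. Differences between genes in their response were compared for 6 pairs by exact permutation of the samples. The C1qb to C1qa log2 ratio was 1.68 higher in 15-HETE + LPS cells, without overlap of the groups (two-sided exact p = 0.1, the smallest possible, adjusted p = 0.2). The C1qb to C1qc log2 ratio differed by 0.94, with overlap (exact p = 0.2, adjusted p = 0.3), and the C1qc to C1qa ratio by 0.74 (exact p = 0.4, adjusted p = 0.48). The log2 fold change of Clu was 1.08 above that of Cr1l and 0.94 above that of Cd55. Both ratios were without overlap of the groups (exact p = 0.1, adjusted p = 0.2 for each). The Cd55 to Cr1l log2 ratio differed by 0.14, less than its SD among replicates of 0.33 in 15-HETE + LPS cells and 0.35 in LPS cells (exact p = 0.6).

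**Figure D2:**
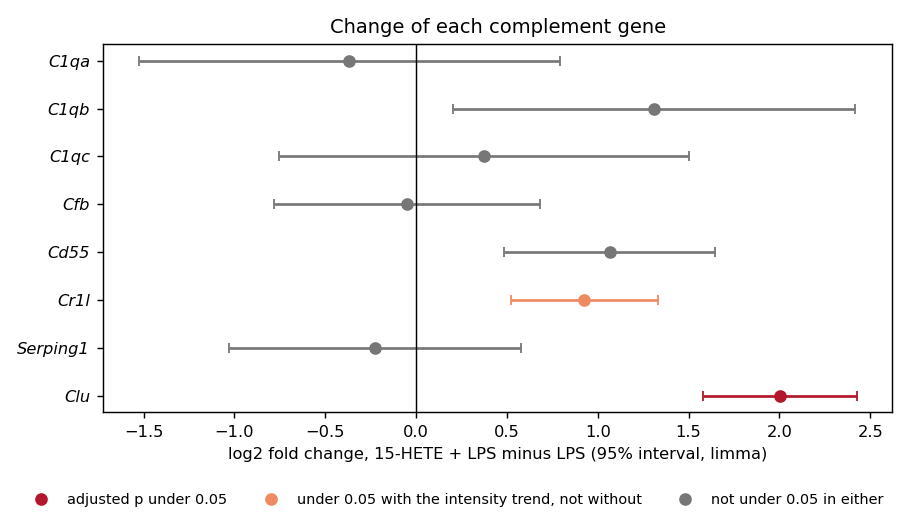
Log2 fold change (15-HETE + LPS minus LPS) of each measured complement gene with its 95% interval from limma, coloured by the test it passed. Clu lies at 2.00, Cr1l at 0.93 with the narrowest interval of the 8, and the intervals of C1qa, C1qc, Cfb and Serping1 include 0.

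Cfb encodes factor B, which provides the protease of the alternative pathway enzyme that cleaves C3. Its intensity was 128562, 105768 and 132211 in the 15-HETE + LPS samples and 192115, 102186 and 101624 in the LPS samples. The treated samples lay between the LPS samples, of which replicate 1 was the highest of all 6. The log2 fold change was -0.05 (95% interval -0.78 to 0.68, adjusted p = 0.943 from limma), and without LPS replicate 1 it was 0.25 (adjusted p = 0.457 from limma). Ywhaz, the gene that the study used as its PCR reference, read 559048, 603411 and 543398 in the 15-HETE + LPS samples and 1104441, 632214 and 644547 in the LPS samples, so LPS replicate 1 was the highest there too. For Ywhaz limma gave -0.43 on the log2 scale, at an adjusted p of 0.423. Next to Cfb in the reference lies C2, the homologous protease of the classical pathway, which read 769, 483 and 1204 in the 15-HETE + LPS samples and 542, 821 and 922 in the LPS samples.

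**Figure D3:**
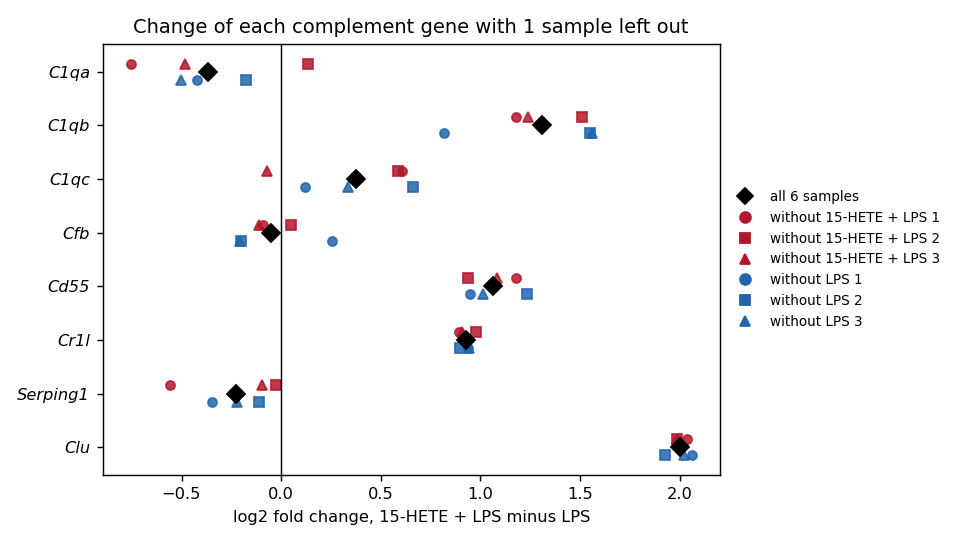
Log2 fold change (15-HETE + LPS minus LPS) of each complement gene with all 6 samples (diamonds) and with each sample left out in turn (red for a 15-HETE + LPS sample, blue for an LPS sample). Clu and Cr1l move little, C1qb is lowest at 0.82 without LPS replicate 1, and C1qa, C1qc and Cfb change sign.

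Of 49 other genes of the complement system, 34 had a probe with 1 symbol, 16 of them above the array median. Of these 34, 0 were higher and 1 lower in limma (0.509% and 0.442% of all probes), while the intensity trend gave 3 higher and 1 lower (3.87% and 4.96%). Before adjustment, 4 higher and 3 lower genes had a p under 0.05, close to the 8.62% and 11.0% of all probes. Their median log2 fold change was 0.03, with 19 above 0 and 15 below, and the groups did not overlap for 5 higher and 3 lower genes, beside 30.0% of all probes. Receptors, regulators, recognition molecules and terminal components had medians of 0.02, 0.03, 0.08 and 0.04, the terminal components counted with C2.

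C5ar1 encodes the receptor for the chemoattractant C5a. It read 15671, 15075 and 14387 in the 15-HETE + LPS samples and 8485, 5676 and 6725 in the LPS samples, and the groups did not overlap. C5ar1 had a log2 fold change of 1.13 with a standard error of 0.21 (adjusted p = 0.0677 from limma, 0.00422 with the intensity trend). The study had itself named C5ar1 among the transcripts altered on these arrays, so this is not independent evidence. C1ra encodes the protease C1r, which C1q activates. C1ra read 25375, 25133 and 25559 in the 15-HETE + LPS samples and 17886, 13879 and 13472 in the LPS samples, a log2 fold change of 0.76 (adjusted p = 0.111 from limma, 0.0101 with the intensity trend). A dimmer probe of C1ra had 0.52, with overlapping groups (adjusted p = 0.424). Thbd encodes thrombomodulin, which is best known as a cofactor of thrombin and also helps to inactivate C3b. Thbd read 6969, 7949 and 5719 in the 15-HETE + LPS samples and 4512, 3110 and 4395 in the LPS samples, a log2 fold change of 0.79 (adjusted p = 0.152 from limma, 0.0433 with the intensity trend). With each sample left out in turn, the intensity trend called C5ar1 in 6 of 6 fits, C1ra in 5 and Thbd in 1.

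The 1 lower gene was Csmd1, a large membrane protein with complement control domains that is known mainly from the nervous system. Csmd1 read 3998, 4945 and 5272 in the 15-HETE + LPS samples and 14177, 11300 and 12896 in the LPS samples, with no overlap. It fell with a log2 fold change of -1.44 and a standard error of 0.20 (adjusted p = 0.0483 from limma, 0.00143 with the intensity trend). The call was lost with a robust prior (adjusted p = 0.0544), with the methods' t-test over all probes (0.113) and with any 1 sample left out (0.0758 to 0.194 from limma), whereas with the intensity trend Csmd1 was called in 6 of 6 such fits. A dimmer probe of Csmd1 had -1.14 (adjusted p = 0.244), with overlapping groups.

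Other regulators and receptors did not pass the test, among them the neighbours of Cr1l in the reference. These are Cd46, another cofactor for C3b cleavage, and the complement receptor Cr2. Cd46 read 852, 1451 and 1496 in the 15-HETE + LPS samples and 1321, 1266 and 1359 in the LPS samples, a log2 fold change of -0.10 (95% interval -0.74 to 0.55). Cr2 had -0.25 (95% interval -1.41 to 0.91). Cd59a, which blocks pore formation by C9, read 13526, 12629 and 10609 in the 15-HETE + LPS samples and 9602, 15827 and 14766 in the LPS samples. The groups overlapped, and its log2 fold change was -0.10 (95% interval -0.72 to 0.52). The subunits of complement receptor CR3 that binds cleaved C3b, Itgam (0.02) and Itgb2 (0.13), also overlapped between the groups. In RNA from whole cultures, more cells with a transcript and more transcript in each cell cannot be told apart.

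**Figure D4:**
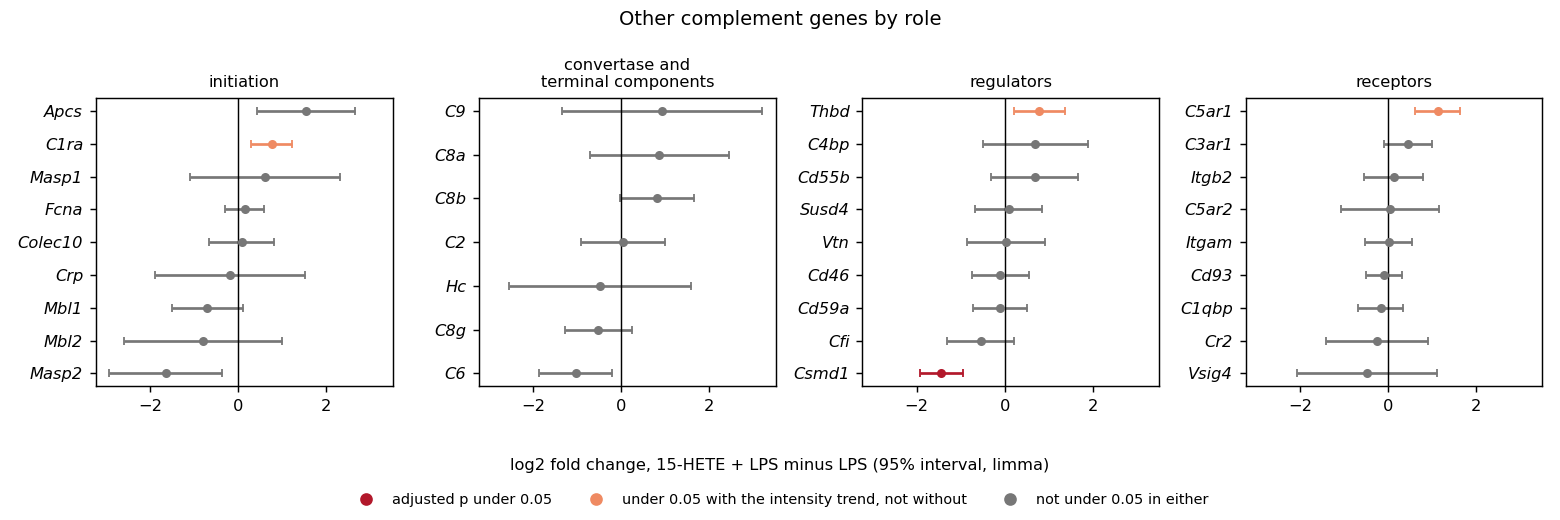
Log2 fold change (15-HETE + LPS minus LPS) with its 95% interval from limma for 34 other complement genes, in panels by role and ordered by value within each. Csmd1 is lower in the test (-1.44), and C1ra, Thbd and C5ar1 pass with the intensity trend but not in limma without it over all probes.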

How the data were processed

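Labeled cRNA made from total RNA of 3 15-HETE + LPS and 3 LPS samples was hybridized to ABI mouse genome survey arrays. The authors read 1 chemiluminescent intensity per probe with the AB1700 Expression Array System Software (1.1.1) and deposited quantile-normalized intensity values. The values used here were intensities without signal-to-noise or flags, so the authors' later filter on these could not be repeated. No value was missing, and background correction is not given in the sources used here. Quantile normalization forces 1 distribution on all arrays (sorted values differ by at most 0.224%), so a shift common to most transcripts would not be seen.

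Intensities were turned to log2 as deposited. The platform annotation gave 1 symbol for 14411 of 33012 probes, of which 14402 were found in the reference by gene ID. All probes were fitted by lmFit and eBayes of limma (3.58.1, under R 4.3.3), two-sided and with Benjamini-Hochberg adjustment, and calls used an adjusted p under 0.05. Single values were compared by exact permutation in Python 3.11.15. Named were all members, and other complement genes called by limma with or without the intensity trend. The members, lists and motifs were chosen with earlier results of these data known, and the marking of CG dinucleotides after the sequences were seen. Alternatives were the intensity trend, a robust prior, the methods' t-test, repeated quantile normalization, cyclic loess, an offset of 100, a filter on dim probes, leaving out each sample in turn and a block for the replicate number. The methods' t-test was adjusted here over all probes, with calls under 0.05. The study had restricted it to probes past its fold rule and used 0.025. The number of arrays limits the precision.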

Additional observations from a re-analysis of the deposited data

How the results depend on the processing

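The count of complement members called higher was 1, with limma as described. It was 2 with the intensity trend, 2 with the offset of 100 (Clu and Cr1l in both), 3 among probes above the median intensity (Clu, Cr1l and Cd55, of which Cd55 has an LPS mean below the array median and may pass the filter through its treated samples) and 0 with the methods' t-test over all probes, which called 0 probes of the array. The study itself had tested only probes that first met its 1.8-fold rule, at a cut-off of 0.025. The 0 calls over all probes are thus not a repeat of its test. Unadjusted, the t-test gave a p under 0.025 for 3 of the 8 members and for 3168 of 33012 probes. With 1 sample left out the count was 0 to 0 without the intensity trend, where 0 probes of the array were called. With the trend it was 2 to 2, where 535 to 2595 probes of the array were called higher. The robust prior, repeated quantile normalization and cyclic loess left it at 1, where 100, 168 and 199 probes were called higher. Under any setting 0 members were called lower. The count of other complement genes called higher was 0, and it was 3 with the intensity trend, 1 with the offset, 3 among probes above the median intensity, and 0 (no trend) to 5 (trend, without LPS replicate 1) with 1 sample left out. The count called lower was 1, and it was 0 with the robust prior, 0 with the methods' t-test and 0 to 2 with 1 sample left out. It reached 2 with the trend, without LPS replicate 1 or 15-HETE + LPS replicate 3, where 2540 and 938 probes were called lower. As each member has 1 probe, the mean over probes gave the same values.

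Same-numbered samples of the groups did not deviate together (correlations of -0.02, 0.00 and 0.02). With 3 samples in each group, this cannot show that they shared no day or plate. The labels do not say what the replicate number marks, so the main fit used no pairing. With the replicate block limma called 0 probes of the array, hence 0 members higher and 0 other complement genes lower. With the replicate block and the intensity trend 2 members and 2 other complement genes were higher, where 1058 probes of the array were called higher. In the same fit 0 members and 1 other complement gene were lower, where 1266 probes of the array were called lower. The fits that combine the intensity trend with the block or with a sample left out were chosen after seeing the data.

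Direction turned with 1 sample left out for 3 members, with or without the intensity trend. Log2 fold changes ran from -0.754 to 0.136 for C1qa (highest without 15-HETE + LPS replicate 2), from -0.0718 (without 15-HETE + LPS replicate 3) to 0.664 for C1qc, and from -0.204 to 0.255 (without LPS replicate 1) for Cfb, which had 0.0505 without 15-HETE + LPS replicate 2. The cause was not tested. Without LPS replicate 1 the intensity trend called 2595 probes higher and 2540 lower, beside 535 to 727 higher and 688 to 938 lower without any other sample. The C1q chains and Cd55 lie near the array median and Serping1 below it, which limits what can be said of them.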

Other observations

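Some complement genes outside the rule for named genes were singled out after their values were seen, because the groups did not overlap. C3ar1, the receptor for the anaphylatoxin C3a, read 59834, 51096 and 59158 in the 15-HETE + LPS samples and 32164, 45825 and 47653 in the LPS samples, a log2 fold change of 0.45 (95% interval -0.09 to 1.00, adjusted p = 0.323 from limma). Apcs, serum amyloid P component, read 1869, 595 and 787 in the 15-HETE + LPS samples and 316, 424 and 264 in the LPS samples, a log2 fold change of 1.54 (adjusted p = 0.146). Masp2, a protease of the lectin pathway, read 169, 226 and 673 in the 15-HETE + LPS samples and 1038, 729 and 1038 in the LPS samples, a log2 fold change of -1.64 (adjusted p = 0.169). C6, a part of the membrane attack complex, read 142, 122 and 272 in the 15-HETE + LPS samples and 325, 301 and 420 in the LPS samples, a log2 fold change of -1.04 (adjusted p = 0.178). Apcs, Masp2 and C6 lie below the array median on average.

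Among the fibroblast markers Dcn, the matrix proteoglycan decorin, read 5926, 6192 and 5348 in the 15-HETE + LPS samples and 11876, 13685 and 18190 in the LPS samples, a log2 fold change of -1.30 (adjusted p = 0.0587 from limma, 0.00298 with the intensity trend).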
